A study of Mus musculus with 8 samples.

Results

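The genes described here are 10 genes of fibroblast growth factor (FGF) signaling, chosen by name with earlier results of these data known. They were taken as FGF receptors and as genes that ERK signaling switches on, among them genes that restrain ERK. They are the receptors Fgfr1, Fgfr2, Fgfr3 and Fgfrl1, the ETS transcription factors Etv4 and Etv5, the Sprouty genes Spry1, Spry2 and Spry4, and the phosphatase gene Dusp6. All 10 were present among the 47729 genes counted in neural stem cells (NSCs) and the 40562 genes counted in astrocyte cultures, and all 10 passed the filters on low counts in both. RNA was sequenced in 8 libraries of C57BL/6 mice, with an age of 10 weeks in the labels. For the astrocyte cultures the paper's methods instead give an age of 3 months, and mice of both sexes. The S89G-DMP1 mice are knock-in animals, bred to homozygosity, in which the serine of dentin matrix protein 1 that carries the glycosaminoglycan chain was replaced by glycine in every cell, after an FLP cross had removed the selection cassette, and the controls were wild type (WT). NSCs of the subventricular zone were grown as neurospheres in DMEM/F12 with N2 supplement, with 3 WT and 3 S89G-DMP1 libraries. The study names EGF and basic FGF as mitogens of its NSC cultures. Astrocytes of the cortex were grown in DMEM with 10% fetal bovine serum, with 1 WT and 1 S89G-DMP1 library. The labels number the NSC libraries as triplicates without saying whether they came from separate cultures or animals, so the p-values measure the spread between these libraries, which may be technical.

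FGFs bind receptor tyrosine kinases on the cell surface, and the activated receptor passes the signal through the adaptor FRS2 and through RAS, RAF and MEK to the ERK kinases. ERK raises the transcription of Etv4 and Etv5, and also of Sprouty genes and Dusp6, whose products damp the cascade, so these genes are widely used as readouts of FGF and ERK activity. In the brain, basic FGF keeps NSCs dividing in culture, and FGF receptors are expressed by radial glia, NSCs and astrocytes.

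Before the values, the upstream sequences of the 4 genes that passed the NSC test are shown, since a reader may wish to see whether the genes that moved share letters next to their starts. Each is the 250 bases before the start of the gene in RefSeq on the build GRCm38.p6, written 5′ to 3′ on the strand of the gene. Fgfr2 was read from chr7:130266809-130267058 on the minus strand, Fgfr3 from chr5:33721474-33721723 on the plus strand, Fgfrl1 from chr5:108693979-108694228 on the plus strand and Etv5 from chr16:22439571-22439820 on the minus strand. Capitals mark the ETS motif CCGGAAG and the GC box GGGCGG on either strand, and no capitals of the 2 motifs overlap.
Fgfr2: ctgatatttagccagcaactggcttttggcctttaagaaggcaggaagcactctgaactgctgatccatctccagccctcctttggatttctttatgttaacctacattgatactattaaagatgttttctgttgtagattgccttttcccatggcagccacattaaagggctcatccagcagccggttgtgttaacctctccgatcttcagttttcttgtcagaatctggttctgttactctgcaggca
Fgfr3: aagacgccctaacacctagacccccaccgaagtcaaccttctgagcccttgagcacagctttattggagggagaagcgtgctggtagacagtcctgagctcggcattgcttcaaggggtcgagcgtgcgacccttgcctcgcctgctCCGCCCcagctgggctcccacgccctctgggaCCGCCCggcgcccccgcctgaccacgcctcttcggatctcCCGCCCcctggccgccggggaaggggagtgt
Fgfrl1: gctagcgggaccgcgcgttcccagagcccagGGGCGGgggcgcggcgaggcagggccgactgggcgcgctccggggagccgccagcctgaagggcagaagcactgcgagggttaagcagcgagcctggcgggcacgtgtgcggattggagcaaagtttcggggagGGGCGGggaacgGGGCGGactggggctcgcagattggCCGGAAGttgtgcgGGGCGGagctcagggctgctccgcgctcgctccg
Etv5: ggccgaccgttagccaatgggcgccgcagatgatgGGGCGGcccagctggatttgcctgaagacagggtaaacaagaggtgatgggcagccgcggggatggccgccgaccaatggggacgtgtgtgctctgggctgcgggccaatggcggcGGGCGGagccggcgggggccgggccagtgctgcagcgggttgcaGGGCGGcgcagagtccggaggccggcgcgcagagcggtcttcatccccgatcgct

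The window of Fgfrl1 held 1 ETS motif, which began 48 bases before the start, and 4 GC boxes. The windows of Fgfr3 and Etv5 held 3 GC boxes each and no ETS motif. The window of Fgfr2 held neither motif. Among the 32851 upstream windows of this length in the RefSeq table, 6.91% held CCGGAAG and 32.7% held GGGCGG. Neither of these 2 motifs is therefore shared by all 4 windows, and no other motif was searched. A match of letters is a description and not evidence of binding. For Fgfr3 and Etv5 RefSeq gave 2 windows each, and the one next to the outermost start is printed. Both Fgfr3 windows held a GC box, but only 1 of the 2 Etv5 windows did.

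Between 2354615 and 2588130 reads were counted on genes per NSC library, and 14008670 and 13016924 in the WT and S89G-DMP1 astrocyte culture libraries. Counts were scaled by TMM factors to CPM, each gene's part of the scaled total of its library. Dmp1, the mutated gene, had 18, 21 and 16 counts in the WT NSC libraries and 6, 3 and 5 in the S89G-DMP1 ones. In the astrocyte cultures it had 2 counts in WT and 119 in S89G-DMP1. Gene counts do not show which base a library carries, so they do not check the genotype. The NSC libraries carried the NSC markers, with all 9 detected and summed levels of 3694 to 3922 CPM in WT against 4050 to 4110 CPM in S89G-DMP1. The WT astrocyte library went against its label, with 90 counts of Gfap, 8 of Aqp4 and 30 of Sox2, where the S89G-DMP1 library had 901, 4051 and 2705. The astrocyte marker S100b went the other way, with 64 counts in WT and 30 in S89G-DMP1, and Gja1 had 1165 and 1913 counts. The 9 astrocyte markers summed to 117 CPM in the WT astrocyte library and to 1043 CPM in the S89G-DMP1 one, while the 10 fibroblast and meningeal markers summed to 5522 and 2272 CPM. With 1 library per genotype, no astrocyte value can be given without that library.

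The first comparison asked how the 10 genes differed between WT and S89G-DMP1 NSCs. Fgfr3 rose in S89G-DMP1 NSCs, while Fgfr2, Fgfrl1 and Etv5 fell, with Fgfr2 showing the greatest log2 change of the 10 and Etv5 the smallest adjusted p. Thus 4 of the 10 genes passed an adjusted p of 0.05 in edgeR's quasi-likelihood test, against 15.8% of the 11194 genes tested, with 1 higher (7.08% of all genes) and 3 lower (8.76% of all genes). Since the 10 genes were chosen with earlier results of these data known, the shares over all genes are given for scale and are not a test. With DESeq2 the same 4 genes passed, as did 7.6% of all genes (3.11% higher and 4.49% lower). With limma on log2(TPM + 1) of the deposited TPM values 0 of the 10 passed, and only Fgfr2 had an unadjusted p under 0.05. The median log2 fold change was -0.11 over the 10 genes and 0.00 over all genes tested. In S89G-DMP1 all 3 libraries lay below all 3 WT libraries for 6 of the 10 genes, against 16% of all genes tested, and above them for 1, against 14.8%. The Sprouty genes, Dusp6, Etv4 and Fgfr1 did not pass.

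**Figure D1:**
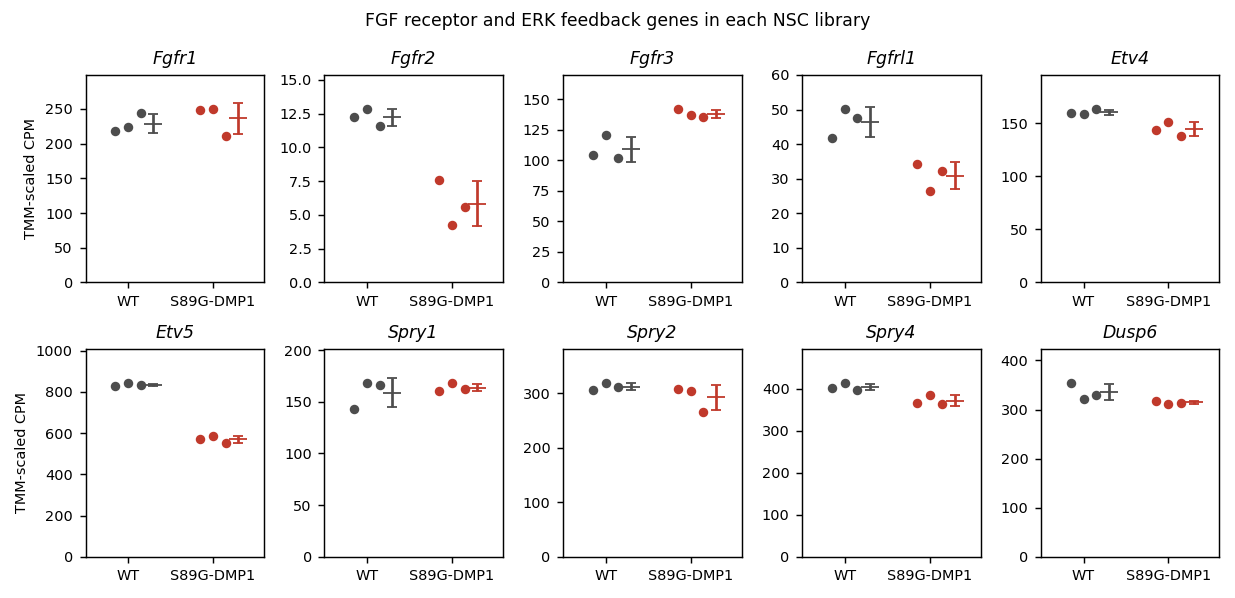
Each panel plots TMM-scaled CPM from 0 for one gene, with a point for each of the 3 WT (grey) and 3 S89G-DMP1 (red) NSC libraries and the mean with its SD beside them. Etv5 separates widely, from 831 to 841 CPM in WT to 552 to 587 CPM in S89G-DMP1, and Fgfr1, Spry1 and Spry2 overlap.

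Of the receptors, Fgfr1 encodes the receptor tyrosine kinase with the highest level of these receptors in the NSCs (chr8:25518759-25575718 on GRCm38.p6). Its level was 218, 224 and 244 CPM in the WT libraries against 249, 249.5 and 210.2 CPM with the mutation. The groups overlapped, and the log2 fold change was 0.05 ± 0.07 (SE), with an adjusted p of 0.71 in edgeR. Fgfr1 overlaps the RefSeq lncRNA genes Gm31288 and Gm16159, and whether the counting used strand is not given in the sources used here, so reads of these genes cannot be told apart.

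Fgfr2, a receptor kinase gene (chr7:130162451-130266808), was the least abundant of the 10. It had 29, 33 and 29 counts in WT (12.2, 12.8 and 11.6 CPM) and 18, 10 and 14 in S89G-DMP1 (7.58, 4.28 and 5.62 CPM). Every S89G-DMP1 library lay below every WT library, though with few counts. The log2 fold change was -1.06 ± 0.26 (SE), with an adjusted p of 0.0018 in edgeR and of 0.048 in DESeq2, within a range of 0.000992 to 0.111 over 9 alternatives of tool, scale, filter and unit.

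Fgfr3 (chr5:33721724-33737068) encodes the receptor kinase that marks radial glia and astrocytes. It stood at 104, 120.4 and 102 CPM in WT and at 142, 137 and 135 CPM with the mutation. All 3 S89G-DMP1 libraries lay above the highest WT library, and the log2 fold change was 0.34 ± 0.08 (SE), with an adjusted p of 0.00075 in edgeR. It was the one gene of the 10 that rose. The level of the astrocyte marker list moved in the same direction, from 1470 to 1518 CPM summed in the WT libraries and from 1991 to 2043 CPM in the S89G-DMP1 libraries, with 8 of 9 markers detected, Gjb6 at 0 and at most 6 counts of Gfap per library. Of that list Aldh1l1 moved most, from a mean of 307 to 629 CPM. The part of these markers in the result was not tested.

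Fgfrl1 (chr5:108694229-108706950) encodes a receptor that binds FGFs but lacks the kinase domain inside the cell. Its level was 41.7, 50.1 and 47.5 CPM in WT, against 34.1, 26.5 and 32.1 CPM in S89G-DMP1. The groups did not overlap, and the log2 fold change was -0.59 ± 0.13 (SE), with an adjusted p of 0.00043 in edgeR. The fibroblast and meningeal marker list also lay lower, at 200 to 219.7 CPM in WT against 110.4 to 118 CPM in S89G-DMP1, with Col1a2, Dcn, Lum and Tbx18 at 0 in all 6 libraries and at most 6 counts of Col1a1. Thy1 carried most of that difference, with means of 151 and 69.1 CPM. Pdgfra lay at 15.7 and 8.75 CPM, while Foxc1 lay at 6.16 and 9.16 CPM. The mural list lay at 173 to 176 CPM and at 109 to 134 CPM, nearly all of it Cspg4 (means of 174 and 118 CPM), with at most 3 counts per library of each other mural marker. The oligodendrocyte lineage list lay at 3492 to 3760 CPM in WT and at 3644 to 3811 CPM in S89G-DMP1. Most of it was Olig1 (means of 2498 and 2571 CPM) and Olig2 (1106 and 1169 CPM). The part of any of these lists in these results was not tested. In such bulk samples, fewer cells of a type and less RNA per cell cannot be told apart.

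Dividing by the length of each gene allowed levels of the receptors to be set side by side. As a share of the summed CPM per kb of the 4 receptor genes, Fgfr1 made up 49.4% ± 2.52 (SD, n = 3) in WT and 50.9% ± 2.76 in S89G-DMP1 NSCs. Fgfr3 made up 26.7% ± 1.98 and 33.9% ± 1.17, Fgfrl1 20.6% ± 0.944 and 13.7% ± 1.77, and Fgfr2 3.23% ± 0.210 and 1.53% ± 0.386. The ranges of Fgfr3, Fgfrl1 and Fgfr2 did not overlap between genotypes, and those of Fgfr1 did. For single values, the exact two-sided permutation test of 3 against 3 libraries cannot go below p = 0.1. The log2 ratio of Fgfr3 to Fgfr1 was higher by 0.30 in S89G-DMP1, and that of Fgfr2 to Fgfr1 was lower, with a difference of -1.15. Both gave p = 0.1 in the exact permutation test, also after adjustment over 3 gene pairs, which were picked after their values were seen.

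**Figure D2:**
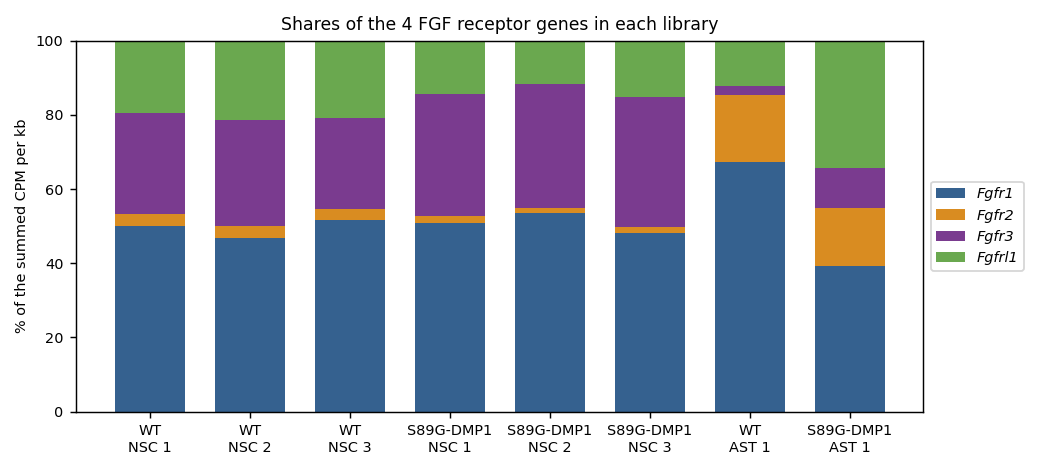
Stacked bars give, for each of the 8 libraries, the percentage of the summed CPM per kb of the 4 receptor genes that each gene makes up, from 0 to 100%. Fgfr1 takes 46.7 to 53.7% in all 6 NSC libraries, and Fgfr3 takes 24.6 to 28.5% in WT and 32.9 to 35.2% in S89G-DMP1 NSCs.

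Etv4 and Etv5 encode closely related ETS transcription factors of the PEA3 group, which ERK signaling induces. Etv5 (chr16:22381313-22439570) had 1971, 2164 and 2084 counts in WT and 1353, 1372 and 1376 in S89G-DMP1, that is 831, 841 and 832 CPM and 569.9, 587 and 552 CPM. In these counts the WT libraries differed from each other by far less than from any S89G-DMP1 library. The log2 fold change was -0.55 ± 0.05 (SE), with an adjusted p of 5.6e-14 in edgeR. The deposited TPM of Etv5 was 549.6, 270.0 and 540.5 in WT and 369, 374 and 346 in S89G-DMP1, so that the groups overlapped on that scale, and the log2 fold change there was -0.25, with an adjusted p of 0.715 (limma on log2(TPM + 1)) beside a range of 3.45e-25 to 0.716 over 9 alternatives.

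Etv4 (chr11:101769747-101785310) stood at 159, 158.5 and 163 CPM in WT and at 144, 151 and 138 CPM in S89G-DMP1. The groups did not overlap, yet the log2 fold change of -0.15 ± 0.07 (SE) did not pass, with an adjusted p of 0.13 in edgeR. The log2 ratio of Etv5 to Etv4 was 2.38 ± 0.029 (SD, n = 3) in WT and 1.98 ± 0.021 in S89G-DMP1, with a difference of -0.40 and p = 0.1 in the exact permutation test, the smallest it can give. The ratio was lower in each S89G-DMP1 library than in any WT library.

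The feedback inhibitors came next. Sprouty proteins restrain signaling between receptor tyrosine kinases and ERK, and DUSP6 is a phosphatase that inactivates ERK in the cytoplasm. Spry4 (chromosome 18) stood at 402, 413 and 398 CPM in WT and at 367, 386 and 363 CPM in S89G-DMP1. Dusp6 (chr10:99263231-99267489) stood at 353, 322 and 329.9 CPM in WT and at 318, 312 and 314 CPM in S89G-DMP1. For both genes each S89G-DMP1 library lay below each WT library, but the log2 fold changes of -0.12 ± 0.06 and -0.09 ± 0.06 (SE) did not pass, with adjusted p-values of 0.14 and 0.32 in edgeR. Dusp6 overlaps the RefSeq lncRNA gene Gm34921.

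Spry2 (chr14:105891947-105896819) stood at 305, 318 and 311.5 CPM in WT and at 308, 303 and 265.5 CPM in S89G-DMP1, and Spry1 (chr3:37639947-37644599) at 143, 168 and 166 CPM and at 161, 168 and 162 CPM. The groups overlapped for both genes. The log2 fold changes were -0.09 ± 0.06 and 0.04 ± 0.07 (SE), with adjusted p-values of 0.32 and 0.77 in edgeR. For the 4 inhibitors, a p that misses the threshold does not show that the levels were equal.

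**Figure D3:**
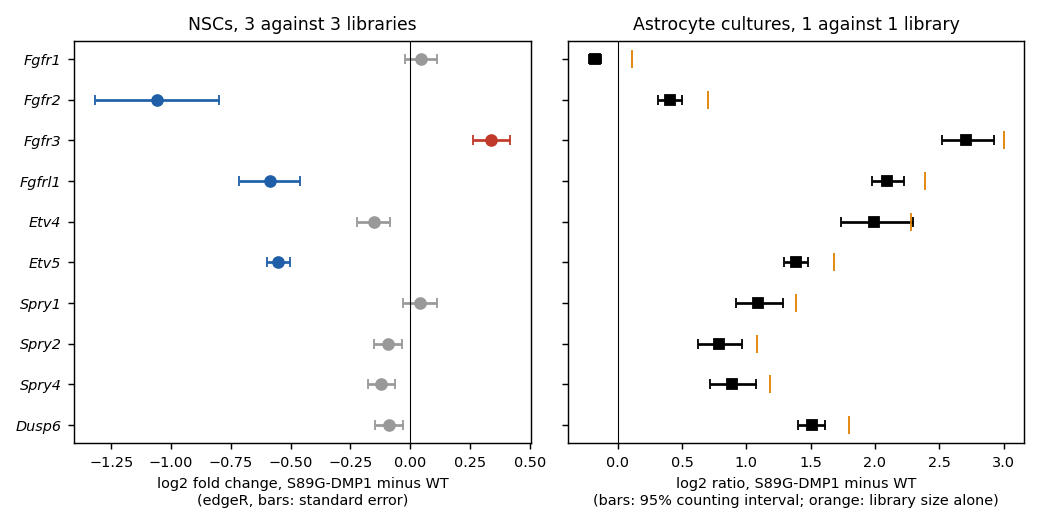
The left panel plots the log2 fold change of S89G-DMP1 minus WT in NSCs with its SE (blue lower, red higher, grey not passing the edgeR test), and the right panel the log2 ratio of the astrocyte culture libraries with its 95% counting interval, orange ticks giving the ratio scaled by library size alone. Etv5 lies at -0.55 on the left and at 1.39 on the right, and Fgfr3 lies above 0 in both panels.

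Per kb of gene length, the 10 genes covered a wide range in WT NSCs. Etv5 stood highest at 463 ± 2.99 CPM per kb (SD, n = 3), followed by Spry2 at 149 ± 3.04 and Etv4 at 147 ± 2.39, whose ranges overlapped. Dusp6 followed at 119.8 ± 5.84, then Fgfr1 at 92.1 ± 5.37 and Spry4 at 88.1 ± 1.62, whose ranges also overlapped. Spry1 stood at 61.9 ± 5.43, Fgfr3 at 49.8 ± 4.58, Fgfrl1 at 38.4 ± 3.56 and Fgfr2 at 6.01 ± 0.305, with no overlap between neighbours. In S89G-DMP1 NSCs the order of the means was the same, with Etv5 at 316 ± 9.79 CPM per kb. There Spry1 at 63.8 ± 1.40 and Fgfr3 at 63.1 ± 1.61 overlapped in place of Fgfr1 and Spry4. The order depends on the lengths, which came from the astrocyte values, and the deposited NSC TPM gave another order for some genes. In S89G-DMP1 NSCs Dusp6 had 297, 280 and 281 TPM, above Etv4 at 157, 183 and 169 TPM. Spry4 had 201, 209 and 192 TPM there, above Fgfr1 at 130, 131 and 127 TPM.

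**Figure D4:**
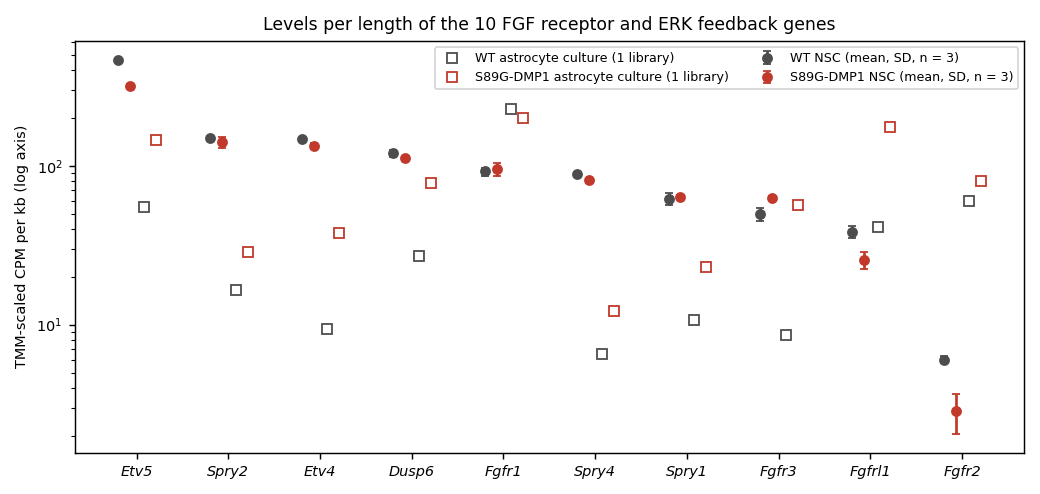
The plot gives TMM-scaled CPM per kb of gene length on a log axis for the 10 genes, with filled circles for the mean and SD of 3 NSC libraries per genotype and open squares for the single astrocyte culture libraries. Etv5 is highest in NSCs (463 and 316 CPM per kb) and Fgfr1 in the astrocyte cultures (227 and 201 CPM per kb).

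Etv5 had the smallest p of the genes that passed, and the genes most like it over the 6 NSC libraries were found by the Pearson correlation of log2 CPM among 9738 tested genes with a mean of at least 10 CPM. They were Pcsk6 (r = 0.9987), Grk3 (r = 0.9987) and Itga4 (r = 0.9986), all lower in S89G-DMP1, with log2 fold changes of -1.21, -0.85 and -1.66. Among the other 9 genes, Spry4 (r = 0.92), Etv4 (r = 0.92) and Fgfrl1 (r = 0.89) were the most like it. The 6 libraries share 2 genotypes, so that a gene differing by genotype correlates with Etv5, and 321 genes had r above 0.95.

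The other genes of the pathway were taken as 8 lists of 87 genes, also chosen with earlier results of these data known. All but Spry3 were present, and 58 had enough counts to be tested in NSCs. Among them, 11 fell (8.76% of all genes tested did) and 1 rose (7.08%), and their median log2 fold change was -0.07. The count of 11 rests in part on small changes, since it became 6 without S89G-DMP1 replicate 3 and 7 without WT replicate 3. With DESeq2 it became 3 (4.49% of all genes), namely Fgf1, Flrt1 and Fos.

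Of the 18 FGF ligand genes, 17 had at most 8 counts in every NSC library, among them 5 at 0 in all 6 libraries, which allows up to 3 counts per library. The exception was Fgf1, a ligand of all FGF receptors, with 129, 132 and 138 CPM in WT against 78.3, 76.2 and 87.4 CPM in S89G-DMP1. Fgf1 fell by 0.72 on the log2 scale (SE 0.08), with an adjusted p of 1.5e-10 in edgeR. Among the other receptors and co-receptors, 3 of 8 could be tested and 1 fell, beside 8.76% of all genes tested. It was Flrt1, a membrane protein that binds FGF receptors, with 31, 28 and 38 counts in WT and 5, 8 and 3 counts in S89G-DMP1. Its log2 fold change was -2.52 ± 0.33 (SE), with an adjusted p of 9.3e-09 in edgeR. Fgfr4, the remaining receptor kinase gene, had at most 2 counts per library.

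Between receptor and ERK, 2 of the 10 adaptor genes and 1 of the 12 cascade genes fell, beside 8.76% of all genes tested. The adaptors were the docking proteins Gab1 at -0.23 ± 0.07 (SE) and Gab2 at -0.37 ± 0.10. The cascade gene was Mapk3, which encodes ERK1, at -0.29 ± 0.09. Their adjusted p-values in edgeR were 0.015, 0.0074 and 0.023, and none of the 3 passed in DESeq2. Gab1 lost its call without S89G-DMP1 replicate 1 or WT replicate 3, Gab2 without WT replicate 3, and Mapk3 without S89G-DMP1 replicate 2 or 3 or WT replicate 2. The 3 tested intracellular FGF homologous factors did not pass.

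Among 12 tested genes of the other ERK feedback inhibitors 1 fell, beside 8.76% of all genes tested. It was Dusp4, a nuclear ERK phosphatase, at -0.30 ± 0.10 (SE) with an adjusted p of 0.024 in edgeR. Of the 10 ERK target genes 4 fell, beside 8.76% of all genes (1 of the 10 in DESeq2, beside 4.49%). They were the immediate early genes Fos at -0.70 ± 0.14 and Egr1 at -0.18 ± 0.06, Ccnd1 (cyclin D1) at -0.12 ± 0.04 and Phlda1 at -0.48 ± 0.15. Their adjusted p-values in edgeR were 0.00014, 0.027, 0.046 and 0.014. For Phlda1 the direction was lost on the deposited TPM values, with a log2 fold change of 0.00698 on log2(TPM + 1). Of these, Fos kept its call in all 6 fits with a library left out, whereas Ccnd1 lost it in 5, the exception being without WT replicate 1. Dusp4 lost it without S89G-DMP1 replicate 2 or 3 or WT replicate 2, Egr1 without S89G-DMP1 replicate 2 or 3 or WT replicate 3, and Phlda1 without S89G-DMP1 replicate 1 or 3 or WT replicate 3. Among 7 tested genes of the EGF receptor family 1 rose and 1 fell, beside 7.08% and 8.76% of all genes. Egfr, the receptor of the other mitogen, rose by 0.18 ± 0.05 (adjusted p = 0.0082 in edgeR). Hbegf, one of its ligands, fell, at -0.37 ± 0.10 (adjusted p = 0.0082 in edgeR), a call lost without WT replicate 2. Without that WT library 2 list genes rose in place of 1.

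**Figure D5:**
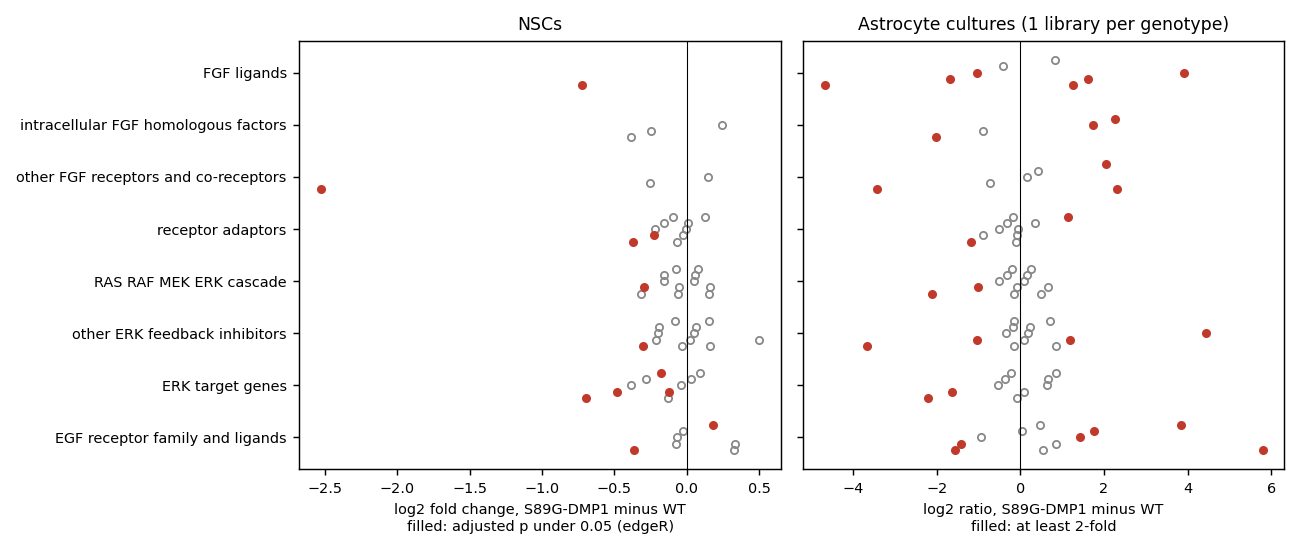
Each point is one other gene of the pathway, placed by its log2 difference of S89G-DMP1 minus WT in NSCs (left) and astrocyte cultures (right) and grouped by list, filled where it passed the edgeR test on the left or differed at least 2-fold on the right. On the left 11 of 12 filled points lie below 0, and on the right 14 lie on each side.

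The second comparison set the S89G-DMP1 astrocyte culture library beside the WT one. It has no replicates and no test, and the intervals given are exact binomial 95% intervals that cover counting error only. Fgfr3, Fgfrl1, Etv4, Etv5, Spry1 and Dusp6 reached 2-fold more in the S89G-DMP1 library, as did 17.3% of the 15680 genes counted, and none of the 10 reached 2-fold less (12.8% of all genes). The log2 ratio was above 0 for 9 of the 10 genes, beside 50.5% of all genes. The median log2 ratio of the 10 genes was 1.24, beside 0.01 over all genes. Scaled by library size alone, the median of all genes became 0.30 and that of the 10 genes 1.53. On that scale 8 of the 10 were 2-fold higher or more (22.2% of all genes), 0 were 2-fold lower (9.66%) and 10 lay above 0 (66.4%). The 2 libraries differed in markers at the same time, the NSC markers summing to 776 CPM in WT against 2207 CPM in S89G-DMP1, microglia to 345 and 612 CPM, neuron markers to 75.9 and 217 CPM and oligodendrocyte lineage to 21.1 and 267 CPM. Of the neuron list, Map2 lay at 8.29 and 192 CPM but Tubb3 at 67.1 and 19.4 CPM. Of the oligodendrocyte lineage list, Olig1 lay at 0.316 and 187 CPM and Olig2 at 0.237 and 54.3 CPM, but Mbp at 8.85 and 8.68 CPM. Mural markers summed to 1919 and 2670 CPM, with Acta2 at 723 and 2468 CPM but Pdgfrb at 929 and 158 CPM and Rgs5 at 192 and 2.71 CPM. Endothelial markers summed to 193 and 70.9 CPM, with Cdh5 at 151 and 1.6 CPM but Flt1 at 31.9 and 54.9 CPM. The part of these markers in the differences of the 10 genes was not tested.

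Among the receptors, Fgfr3 had 237 counts in WT and 1777 in S89G-DMP1 (18.7 and 123 CPM), a log2 ratio of 2.71 with an interval of 2.52 to 2.92. Fgfrl1 had 626 and 3053 counts (49.4 and 212 CPM), a log2 ratio of 2.10 with an interval of 1.98 to 2.23. Fgfr2 had 1549 and 2339 counts (122 and 162 CPM), with a smaller log2 ratio of 0.41 and an interval of 0.32 to 0.50. For Fgfr1, with 7140 and 7178 counts, the log2 ratio was -0.18 under TMM scaling and 0.11 by library size alone, so its direction depended on the scale. Of the summed receptor level per kb, Fgfr1 made up 67.4% in the WT and 39.2% in the S89G-DMP1 library, Fgfrl1 12.1% and 34.2%, Fgfr2 17.9% and 15.6%, and Fgfr3 2.54% and 11.0%.

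The factors and inhibitors were all higher in the S89G-DMP1 library on either scale. Etv4 had 130 and 595 counts in WT and S89G-DMP1 (log2 ratio 1.99, interval 1.73 to 2.29), and Etv5 had 1257 and 3744 (1.39, interval 1.30 to 1.48). Dusp6 had 963 and 3117 counts (1.51, interval 1.40 to 1.61). Spry1 had 349 and 849 counts (1.09), Spry4 382 and 807 (0.89) and Spry2 436 and 859 (0.79). Thus Spry2 and Spry4 lay under 2-fold with TMM scaling and above it by library size alone.

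Of the 87 other genes of the pathway, 74 were counted in the astrocyte cultures, and 14 of them differed 2-fold or more upward and 14 downward in S89G-DMP1, with a median log2 ratio of -0.08, beside 17.3% and 12.8% of all genes. By library size alone these numbers were 19 and 10, beside 22.2% and 9.66%. Il17rd, which encodes the FGF signaling inhibitor SEF, had 70 and 1767 counts in WT and S89G-DMP1 (log2 ratio 4.44), and Lrig1, an inhibitor of EGF receptors, 762 and 1980 counts (1.19). Dusp9 was lower, with 56 counts in WT and 3 in S89G-DMP1, a WT to S89G-DMP1 ratio of 21.2 with an interval of 6.90 to 106, and Dusp7 was lower by a log2 ratio of -1.04. Both encode ERK phosphatases.

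Among the ligands, Fgf1 had 118 and 324 counts (log2 ratio 1.26), Fgf2, the gene of basic FGF, 1687 and 598 (-1.68) and Fgf10 114 and 3 counts, a WT to S89G-DMP1 ratio of 43.2 with an interval of 14.4 to 213. Flrt2, of the same family as Flrt1, had 7199 and 761 counts (-3.42), whereas Flrt1 had 37 and 182 (2.06). The FGF homologous factors Fgf13 (2.27) and Fgf12 (1.75) were higher and Fgf11 (-2.01) lower. Thus the ligand and co-receptor genes differed in both directions.

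Of the adaptors, Gab1 was higher (log2 ratio 1.15) and Ptpn11, the phosphatase SHP2, lower (-1.18), and of the cascade the scaffold gene Ksr1 (-2.13) and Rras2 (-1.02) were lower. By library size alone Ptpn11, Rras2 and Dusp7 lay under 2-fold. The ERK target genes Fosl1 (-2.21) and Ier3 (-1.63) were lower. In the EGF receptor family Erbb4 had 2 and 242 counts, a ratio of 106 with an interval of 29.1 to 883, Areg had 14 and 256 counts (3.84), and Ereg (-1.57) and Btc (-1.42) were lower.

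Set side by side, the cultures differed in which of the 10 genes stood highest per kb. Fgfr1 led in the astrocyte cultures, at 227 CPM per kb in WT and 201 in S89G-DMP1, where Etv5 led in NSCs. Fgfr2, lowest in NSCs, was the second highest in the WT astrocyte library at 60.3 CPM per kb, and Spry4 was lowest in both astrocyte libraries at 6.58 and 12.2 CPM per kb. These tables were made with different tools from cells in different media, so no test was made between them.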

How the data were processed

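RNA sequencing counts of 3 WT and 3 S89G-DMP1 NSC libraries and 1 WT and 1 S89G-DMP1 astrocyte culture library were used, grouped by the labels. The authors filtered the reads for quality before alignment and deposited counts per gene for all libraries, TPM values for NSCs and FPKM values for astrocytes. The submitters' processing notes name Bowtie2 2.0.6 and TopHat2 2.0.9 for the astrocytes and HISAT2, StringTie, featureCounts and GRCm38 for the NSCs. The astrocyte counter, build and annotation are not given in the sources used here. The deposited TPM values did not follow the counts for some genes (Spry2 has 31.2, 341 and 22.7 TPM in the WT libraries with 724, 818 and 780 counts), so counts were used.

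Low NSC genes were dropped by filterByExpr, TMM factors were applied, and genotypes were compared in edgeR 4.0.16 (R 4.3.3, quasi-likelihood test, genotype only, Benjamini-Hochberg adjusted p of 0.05), and limma 3.58.1 and DESeq2 1.42.0 served as alternatives. Astrocyte log2 ratios used CPM scaled by TMM and a prior count of 2, required 10 counts or more in one library or the other, and were not tested. PCR duplicates are not marked, so intervals cover counting error only. Gene length in kb was the one length that relates the deposited astrocyte counts and FPKM, and was applied to NSCs too. Counting error limits low genes such as Fgfr2. The closest libraries, S89G-DMP1 NSC replicates 1 and 2, differed only slightly beyond counting noise and were kept as 2 samples. Their chi-square per gene was 1.07, where counting noise alone gives about 1. Pairs of the same genotype lay at 1.07 to 1.51 and pairs of different genotype at 3.17 to 4.065. These values do not show whether the replicates are separate cultures or technical repeats. Replicate numbers did not pair the samples, since the deviations of same-numbered libraries correlated at 0.0466, 0.0151 and -0.00375.

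The 10 genes and the lists were chosen with earlier results of these data known. Named are the 10 genes, in NSCs the list genes that passed, in astrocytes the 2 list genes highest and lowest among those at least 2-fold different with at least 50 counts, the 3 genes most like Etv5, marker lists with their defining genes, and Dmp1. Fgfr4, the TPM example and single markers other than Gfap, Aqp4, Sox2 and Col1a1 were named after their values were seen, and so were the 3 gene pairs. Spry3 had no row. Upstream windows were found for 7 of the 10 genes in RefSeq, not for Fgfr1, Etv4 and Spry4.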

Additional observations from a re-analysis of the deposited data

Results flagged for a closer look

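Of the 16 genes that passed the NSC test among the 10 genes and the pathway lists, 8 stand out because their direction in the NSCs was opposite to that in the astrocyte cultures, with every S89G-DMP1 NSC library below every WT NSC library and the S89G-DMP1 astrocyte library above the WT one. Of all 1733 genes that passed in NSCs and were counted in the astrocyte cultures, 47% had opposite directions, so 8 of 16 is near the share of all such genes. By library size alone, an alternative chosen after seeing the data, it was 11 of 16 beside 46.6%, with Dusp4 (0.135), Fos (0.0752) and Ccnd1 (0.197) then above 0 in the astrocyte cultures. With 1 astrocyte library per genotype the difference between the cultures was not tested. Of the 10 genes these were Fgfr2, with an NSC log2 fold change of -1.06 and an astrocyte log2 ratio of 0.408, Fgfrl1 with -0.588 and 2.10, and Etv5 with -0.551 and 1.39. Of the lists they were Fgf1 with -0.721 and 1.26, Flrt1 with -2.52 and 2.06, Gab1 with -0.228 and 1.15, Egr1 with -0.178 and 0.645, and Hbegf with -0.368 and 1.77. The astrocyte ratios move together with the marker lists given in the report, whose part was not tested.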

How the results depend on the processing

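The calls of Fgfr2, Fgfr3, Fgfrl1 and Etv5 were kept under DESeq2, with upper-quartile or RLE factors or none, with both other count filters and with the replicate block, and leaving out each library gave 1 higher and 3 lower in each of 6 fits. The replicate numbers did not pair the samples, and with the replicate block 2 list genes passed as higher in place of 1. List genes higher ranged from 1 to 2 and lower from 6 to 11 over the fits with a library left out (2 higher without WT replicate 2), and without a filter 2 were higher. DESeq2 called 3 list genes lower. With limma on log2(TPM + 1) and on log2(TPM + 0.1), 0 of the 10 genes passed in either direction, and 0 list genes were higher and 2 lower. Over all genes DESeq2 called 348 higher and 503 lower, limma on log2(TPM + 1) 38 and 107, and limma on log2(TPM + 0.1) 31 and 85, against 792 and 981. The sign turned on the 2 TPM scales for Spry2 (2.28 and 2.31), Spry4 (1.34 and 1.38), Dusp6 (0.296 and 0.297) and Phlda1 (0.00698 and 0.000661), none of which passed there though Phlda1 passed in edgeR, and for Spry1 without WT replicate 1 (-0.0286, over a range of -0.0286 to 0.0786 with each library left out). The deposited TPM departs from the counts for Spry2 in WT replicates 1 and 3 and for Spry4 in WT replicate 1, and for Dusp6 it was 214, 302 and 195 in WT with 838, 828 and 826 counts. For the others the cause was not tested. In the astrocyte cultures, a 4-fold threshold left 2 of the 10 genes and 7 list genes higher and 6 list genes lower, a 1.5-fold threshold gave 22 list genes higher, and log2(FPKM + 1) gave 8 list genes lower. Depth limits NSC genes with few counts, such as Fgfr2 and most FGF ligands.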
